A study of Arabidopsis thaliana with 8 samples.

Results

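The genes described here are 5 transcription factor genes of the Arabidopsis thaliana root epidermis: WER (AT5G14750, listed as MYB66 in the RefSeq gene table), RHD6 (AT1G66470), RSL1 (AT5G37800), RSL2 (AT4G33880) and RSL4 (AT1G27740). They were taken by locus from the transcript accessions of the array design, which matched a probe for 25383 genes, and each of the 5 had 1 probe, printed as 1 spot per array. Each sample was hybridised alone to a microarray, with 4 root arrays and 4 flower bud arrays, all from untreated Col-0 plants that were 6 weeks old and grown in hydroponics. Each array held RNA of tissue pooled from 8 to 10 plants, so the replicates are pools and p-values measure the spread between pools. Whole roots and whole buds were sampled, and in such tissue fewer cells of a type and less RNA per cell cannot be told apart.

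A root hair is a long outgrowth of a single epidermal cell that takes up water and nutrients. In the Arabidopsis root, epidermal cells lying over the cleft between cortical cells become hair cells and the others stay hairless. WER, a MYB factor, acts in the hairless cells together with the bHLH proteins GL3 and EGL3 and the WD40 protein TTG1. This complex switches on GL2, which represses the hair programme, and also CPC, a small MYB protein that moves into neighbouring cells and opposes WER there. In hair cells RHD6 and RSL1, bHLH factors of one class, start hair development and act through the second class, RSL2 and RSL4, of which RSL4 is known for setting hair length. Several genes of the fate network also pattern the leaf hairs (trichomes) of the shoot.

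Signals below are the background-subtracted intensities of the scanner software, on a linear scale. Levels are log2 of that signal relative to the 75th percentile of the array, and differences are root minus flower bud on this log2 scale, so a positive difference is higher in roots. Errors after differences are standard errors of the fit. The test took in the 22263 genes whose probe the software flagged as well above background on every array of roots, of flower buds or of both. Calls needed an adjusted p under 0.05 together with a difference of at least 2-fold, in limma with Benjamini-Hochberg adjustment over all genes tested. Where no array of a tissue held a spot well above background, the fold is a bound and is written as "at least". The bound sets the mean of the brighter tissue against a limit for each array of the dimmer one, which is the lowest signal flagged as well above background there, or the probe's signal if that is higher. An unflagged spot can be brighter than the lowest flagged signal, so the bound is not a strict minimum fold.

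The tissue labels matched the marker genes. All 7 root markers, among them SMB of the root cap, were called higher in roots. All 7 floral MADS-box markers were called higher in flower buds. The summed linear level of the root markers, as a multiple of the 75th percentile, was 245 to 278 on root arrays and 0.0416 to 0.0484 on flower bud arrays. That of the floral markers was 0.330 to 0.425 on root arrays and 38.2 to 47.2 on flower bud arrays. In roots AP3, SEP1 and SEP2 were well above background on no array, and in flower buds NRT2.1, AGL17 and SMB were well above background on none. Other markers were measurable in the opposite tissue: PI and SEP3 were well above background on all 4 root arrays, AP1 on 3 of them, and TIP2;3 on all 4 flower bud arrays. The 75th percentile of the signal was 2218 to 3153 on root arrays and 4149 to 4258 on flower bud arrays.

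Of the 5 genes, 4 passed the filter and were tested: WER, RHD6, RSL2 and RSL4. All 4 were called higher in roots, where 54.9% of all genes tested were called in either direction and 25.2% higher in roots, and for all 4 the lowest root array lay above the highest flower bud array, as it did for 37.0% of all genes tested. RSL1 did not pass the filter, because 3 of its 4 root spots, and none of its flower bud spots, were well above background. WER was the one gene of the 5 that was well above background in flower buds. RHD6, RSL2 and RSL4 passed the filter through their root arrays alone, which favours a difference towards roots. The shares over all genes tested are therefore not a like comparison for these genes.

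WER, the gene of hairless cell fate, gave root signals of 3661, 2180, 2091 and 1993, in the order of replicates 1 to 4. In flower buds its signals, in the same order, were 108, 97.4, 73.3 and 38.9, each flagged as well above background. The flower bud spots were thus far dimmer than the root spots but measurable, and the raw spot was 2.86 to 6.14 times as bright as its local background in flower buds. Its level averaged -0.20 ± 0.39 in roots and -5.82 ± 0.68 in flower buds (SD, n = 4 each), a difference of 5.62 ± 0.35 (SE). The difference was called (limma adjusted p = 1.14e-06), and 1179 of the 22263 genes tested had a larger difference towards roots. Flower bud replicate 4 was the lowest of its tissue, and without it the difference was 5.30.

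RHD6, which starts hair development, had signals of 1551, 945, 826 and 1029 on root replicates 1 to 4. Its flower bud signals were 14.3, 9.02, 9.63 and 6.73 and none was well above background. The measured level was -1.39 ± 0.40 in roots and -8.77 ± 0.46 in flower buds (SD, n = 4 each). The bound for RHD6 was at least 157-fold towards roots, with a fitted difference of 7.39 ± 0.27 (SE, limma adjusted p = 5.50e-08).

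RSL1, the closest relative of RHD6, was the dimmest of the 5 spots in roots. It had root signals of 127, 60.1, 60.4 and 9.65 in the order of the replicates. In flower buds its signals were 14.6, 11.0, 15.7 and 9.68. Root replicate 4 was not well above background. Its scaled level of -8.13 lay among the flower bud levels of -8.78 to -8.05, so the tissues overlapped. The level averaged -5.91 ± 1.55 in roots and -8.39 ± 0.34 in flower buds (SD, n = 4 each). The bound for RSL1 was at least 5.59-fold towards roots, with root replicate 4 kept in the root mean. With no filter on dim probes the difference was 2.48 ± 0.70 (SE, limma adjusted p = 0.0123). Without root replicate 4 RSL1 passed the filter and the difference was 3.22 ± 0.29 (SE, limma adjusted p = 3.84e-05). Leaving out the root array that lay among the flower bud levels raises the difference and lowers the SE by construction. That p-value is thus no separate support for a difference.

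RSL2, a bHLH gene of hair growth, had the brightest root spots of the 5, at 6042, 5076, 4228 and 4215 on root replicates 1 to 4. In flower buds the signals were 7.22, 12.8, 7.66 and 9.11, none of them well above background. Its level averaged 0.81 ± 0.34 in roots and -8.87 ± 0.38 in flower buds (SD, n = 4 each). The bound for RSL2 was at least 753-fold towards roots, with a fitted difference of 9.68 ± 0.23 (SE, limma adjusted p = 5.28e-09).

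RSL4, the gene of hair length, gave root signals of 657, 392, 243 and 483 on replicates 1 to 4. Its flower bud signals were 4.65, 3.79, 4.37 and 4.36, with none well above background. Root replicate 3 was the dimmest root array, and all root arrays were far above all flower bud arrays. The level averaged -2.73 ± 0.66 in roots and -9.93 ± 0.12 in flower buds (SD, n = 4 each). The bound for RSL4 was at least 74.8-fold towards roots, with a fitted difference of 7.21 ± 0.30 (SE, limma adjusted p = 1.09e-07). Without root replicate 3 the difference was 7.53 with an SE of 0.12.

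**Figure D1:**
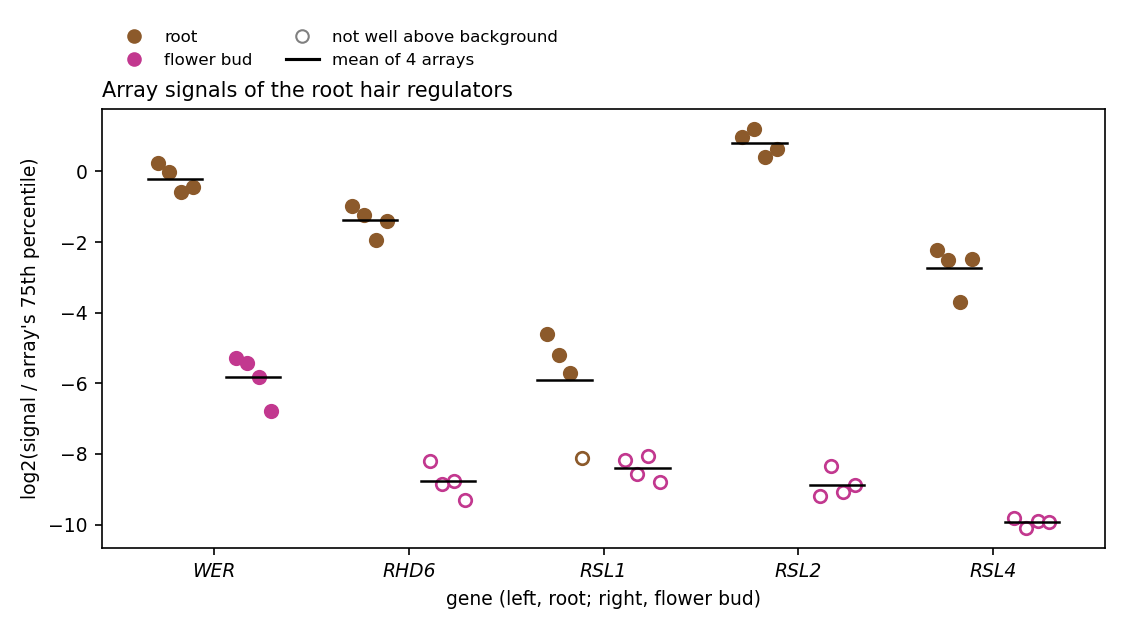
Level of each of the 5 genes on each array, as log2 of the signal relative to the array's 75th percentile, with the 4 root arrays left of the 4 flower bud arrays (replicates 1 to 4 from left to right), open symbols for spots not well above background and black lines for means of 4 arrays. Every root array of WER, RHD6, RSL2 and RSL4 lies above every flower bud array, while root replicate 4 of RSL1 lies among the flower bud arrays.

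The fold sizes of the 4 tested genes were smaller under another background correction, and the calls were kept. This was normexp on the median spot signal with an offset of 50, which by construction draws dim values together. With it the differences were 4.66 for WER, 4.51 for RHD6, 6.65 for RSL2 and 3.44 for RSL4, each still called. These moved by over 1.5-fold, also for WER, whose flower bud spots were all well above background. Which of the changed steps moved them was not tested. The values for RHD6, RSL2 and RSL4 lie below the bounds given above, which use the software's own subtraction. Quantile normalization gave 6.62 for RSL4.

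Within the roots, WER, RHD6, RSL2 and RSL4 shared their lowest pool after scaling. Each of the 4 was at its lowest scaled level on root replicate 3, with deviations from the root mean of -0.39 for WER, -0.55 for RHD6, -0.39 for RSL2 and -0.97 for RSL4. Of the 19055 tested genes well above background on all root arrays, 26.4% were lowest on that array. Root replicate 3 had the highest 75th percentile of the root arrays, at 3153. By unscaled signal RHD6 and RSL4 were lowest there. WER (1993 against 2091) and RSL2 (4215 against 4228) were then lowest on root replicate 4. Other scalings were not tried for this ranking. RSL1 departed from the others: it deviated by 0.20 on root replicate 3 and by -2.22 on root replicate 4. Over the 4 tested genes the median deviations on root replicates 1 to 4 were 0.43, 0.20, -0.47 and -0.09. The effector genes of hair outgrowth described below had median deviations of 0.23, 0.17, -0.25 and -0.14 on the same arrays, and 14 of 26 were lowest on root replicate 3. The 7 root markers, which include genes of the endodermis and root cap, had median deviations of 0.12, 0.17, -0.25 and -0.18. The part of tissue makeup in these deviations was not tested.

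**Figure D2:**
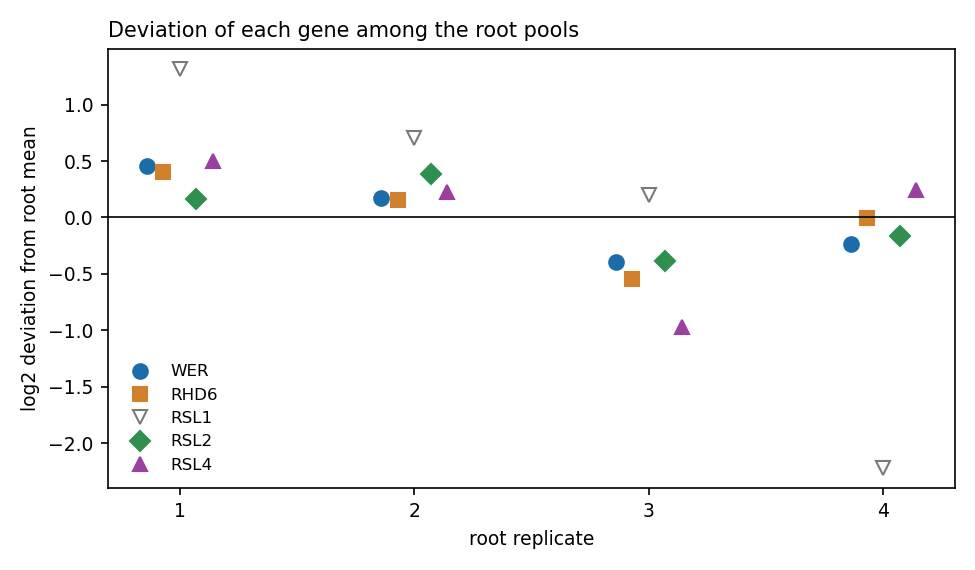
Deviation of each gene from its own mean over the 4 root arrays (log2), by root replicate, with RSL1 drawn open because 1 of its spots was not well above background. WER, RHD6, RSL2 and RSL4 lie below 0 on replicate 3, and RSL1 lies at -2.22 on replicate 4.

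The other genes of epidermal cell fate were not higher in roots as a group. Of 18 such genes tested, 3 were called towards roots and 9 towards flower buds, and the other 6 were not called. Over all genes tested, 25.2% were called towards roots and 29.7% towards flower buds. The median difference of the list was -0.44, and 13 of the 18 were well above background on all 8 arrays. Among those 13 the median difference was 0.41. GL1, ETC2, TCL1 and GL3 passed the filter through their flower bud arrays alone, which favours a difference towards flower buds. ZFP5 passed it through its root arrays alone.

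The partners of WER did not share its difference. TTG1, the WD40 protein of the complex, differed by 0.47 ± 0.11 (SE) and was not called, since the change was under 2-fold. GL3 was dim in both tissues, with levels of -5.60 ± 0.30 in roots and -5.90 ± 0.77 in flower buds (SD, n = 4 each), and was not called. EGL3 was higher in flower buds, at -2.58 ± 0.26, and so was the related bHLH gene MYC1, at -1.83 ± 0.21. The MYB genes closest to WER also differed from it. MYB23, which can act in place of WER in the root, differed by 0.92 ± 0.40 and was not called (limma adjusted p = 0.0589). It was called with array median scaling (1.05) and without flower bud replicate 3 or 4 (1.09 without replicate 4). Without flower bud replicate 1, which lay far below the other flower bud arrays, the difference of MYB23 fell to 0.49. GL1, which takes the place of WER in trichomes, had no root array well above background, and its bound towards flower buds was at least 24.4-fold.

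Upstream and downstream of WER the values were mixed. SCM, a receptor-like kinase that passes on the position signal, was higher in flower buds by a difference of -1.38 ± 0.17, while the zinc finger gene JKD was higher in roots at 1.13 ± 0.18. JKD lost its call without root replicate 4, at 0.99. GL2, the homeodomain gene that the WER complex switches on, was measured on all 8 arrays and differed by 0.58 ± 0.33, which was not called (limma adjusted p = 0.132). TTG2, a WRKY factor that the same kind of complex regulates, was called higher in flower buds at -1.19 ± 0.38, although the arrays of the tissues overlapped. That call was lost under normexp (-0.45), quantile normalization (-0.89) and without root replicate 3 (-0.94), flower bud replicate 3 (-1.03) or flower bud replicate 4 (-0.98). GEM, which modulates GL2 and CPC, differed by 0.41 ± 0.12 and was not called. ZFP5, a zinc finger gene known to act on CPC, stood apart from the list at 9.03 ± 0.33 towards roots, and 1 of its 4 flower bud spots was well above background.

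The small single-repeat MYB genes, which oppose WER and its relatives, went in both directions. ETC1 was higher in roots at 2.14 ± 0.18, and CPC itself was not called at 0.64 ± 0.25. TRY, which acts mainly in trichome spacing, was higher in flower buds at -4.60 ± 0.29. TCL1 was higher in flower buds at -7.13 ± 0.13, and its probe was measurable on 2 of 4 root arrays. ETC2 had no root array well above background, and its bound towards flower buds was at least 7.41-fold. ETC3 was higher in flower buds at -3.59 ± 0.75, and at -2.75 without root replicate 4, which lay far below the other root arrays.

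All 3 LRL genes, bHLH genes that act in root hair development beside the RSL genes, were called higher in roots. The share called higher in roots over all genes tested was 25.2%. LRL1 differed by 4.37 ± 0.32 and LRL2 by 1.70 ± 0.20, and both were well above background on all 8 arrays. LRL3 differed by 7.82 with an SE of 1.1. It was well above background on flower bud replicate 3 alone among the bud arrays, and without that replicate the difference was 9.11.

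Regulators that act on the RSL genes or on hair initiation differed by under 2-fold in 6 of 9 cases. Of the 9 tested, 3 were called towards roots and 0 towards flower buds in limma, 6 were not called, and the median difference was 0.49. By comparison, 25.2% of all genes tested were called towards roots and 29.7% towards flower buds. At an unadjusted p under 0.05, 6 of the 9 passed and 1 of these was lower in roots. Those called were OBP4, a DOF factor known to repress RSL2, at 1.28 ± 0.22, the receptor-like kinase FER at 1.28 ± 0.10 and the auxin influx carrier AUX1 at 1.19 ± 0.14. FER fell under 2-fold with the mean of its 3 probes (0.92), and AUX1 with quantile normalization (0.99). GTL1, a trihelix repressor of RSL4, was not called at -0.86 ± 0.26, but was called at -1.05 without root replicate 1. The ethylene response factor EIN3 was just under 2-fold at 0.99 ± 0.12 and passed it in 5 of 16 alternatives, at up to 1.12, and its relative EIL1 was at 0.49 ± 0.11. The GTPase ROP2, its activator ROPGEF3 and the GDP dissociation inhibitor SCN1, which mark and confine the site of hair outgrowth, differed by 0.19, -0.07 and -0.05 and were not called.

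**Figure D3:**
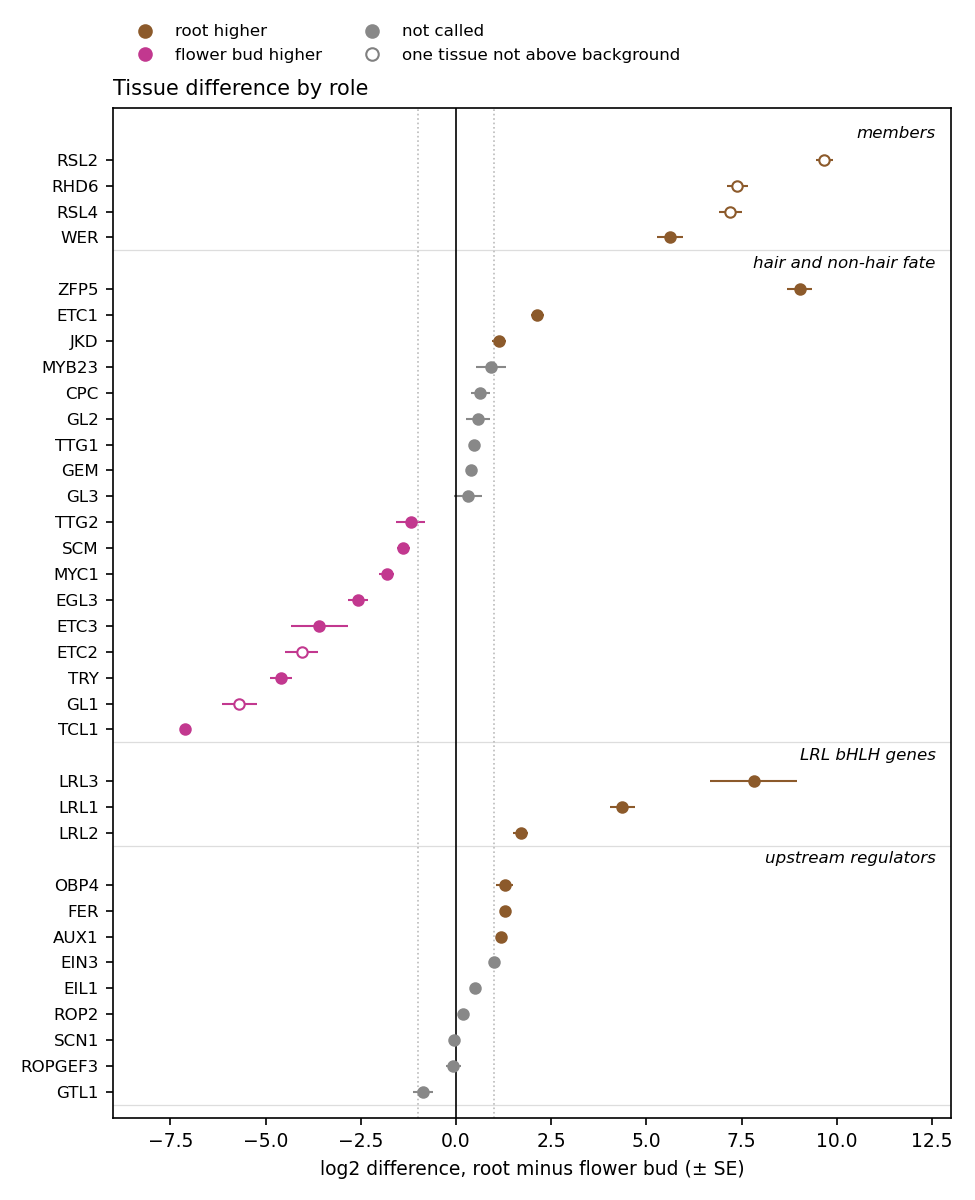
Fitted difference, root minus flower bud (log2, bars are SE, dotted lines at 2-fold), for the 4 tested regulators, the 18 fate genes, the 3 LRL genes and the 9 upstream regulators, coloured by call, with open symbols where one tissue was well above background on no array. RSL2, RHD6, RSL4 and WER lie between 5.62 and 9.68, while the fate genes spread from -7.13 to 9.03.

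Genes that carry out hair outgrowth were called higher in roots in 23 of 26 cases, where 25.2% of all genes tested were called higher in roots. Of the 26, 15 were well above background on all 8 arrays. The others passed the filter through their root arrays alone, which favours a difference towards roots. None of the 26 was called higher in flower buds in limma, and at an unadjusted p under 0.05 all 26 passed, all higher in roots. The median difference was 5.91. Of the 26, the 5 genes with the largest fitted differences are given without an order among them, since each was at background in flower buds. The fitted differences were 12.11 ± 0.18 for RHS19, a peroxidase, 11.33 ± 0.35 for the expansin EXPA7, 9.81 ± 0.30 for MRH6, 9.66 ± 0.40 for the expansin EXPA18 and 9.56 ± 0.42 for the wall protein gene PRP3. All of these were well above background on no flower bud array, with bounds, in the same sequence, of at least 1919-fold, 1467-fold, 417-fold, 650-fold and 639-fold. With both probes of PRP3 averaged its difference was 6.54. The 3 not called were just under 2-fold: RHD3, a GTP-binding protein, at 0.86 ± 0.10, RHD4, a lipid phosphatase, at 0.88 ± 0.14 and the potassium transporter TRH1 at 0.96 ± 0.10. With array median scaling RHD4 (1.01) and TRH1 (1.09) were called. Among the 15 effector genes well above background on all 8 arrays the median difference was 2.41, and 12 were called higher in roots. With only such genes tested, 4547 of 18003 were called higher in roots.

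Genes with the profile most like each regulator were found by the root mean square deviation over the 8 arrays, after each gene was centred on its own mean, among genes well above background on as many arrays of each tissue. For WER these were AT1G06090, AT3G63360 and GSTU10, at deviations of 0.16, 0.21 and 0.24 log2 units, beside a median of 2.84 over 18002 genes. For RHD6 they were AT5G54790, AT5G38960 and AT2G29220, at 0.24, 0.25 and 0.26. For RSL2 they were PSK1, AT1G11655 and AT4G25090, at 0.27, 0.29 and 0.33. For RSL4 they were AT1G50930, AT1G34490 and AT3G45080, at 0.26, 0.27 and 0.28. The genes set against RHD6, RSL2 and RSL4 numbered 645, with median deviations of 0.96, 1.24 and 0.99, and their flower bud values were not well above background. This deviation is set largely by the size of the tissue difference. The genes nearest WER differed by 5.55, 5.55 and 5.86, beside 5.62 for WER.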

How the data were processed

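The deposited spot intensity came from Agilent Feature Extraction 10.10.1.1, which per the file headers subtracted background array by array and set dim spots to a small positive value, without scaling the arrays to each other. Its flags for spots well above background, saturation and outliers were used as given. No spot was saturated. The 6 to 191 outlier spots per array and the control spots were left out, as were 408 repeated lines in 6 files. How the deposited table of log2 values was made was not stated in these sources. Its columns followed the scanner files' log2 signal shifted to the 75th percentile and centred on each probe's median (r at least 0.9993), so its scale, centring and direction were settled from the values. Its column medians were -0.0105, 0.0948, 0.0898 and 0.0252 in roots, against -0.00796, -0.0549, -0.0407 and -0.0582 in flower buds.

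Spots of one probe were averaged as log2 signal and scaled by subtracting the array's 75th percentile. A probe counted as well above background when the flag was set on at least 50% of its spots. Of 43603 probes, 34285 matched 1 locus through transcript accessions in the RefSeq gene table (TAIR10.1, used for names only) and 9318 matched none. A gene's brightest probe on average stood for it. The model (limma 3.58.1, R 4.3.3, functions lmFit and eBayes) had tissue as its factor and was tested on simulated data with known changes. The alternatives were other background correction, scaling, filters, probe rule, a replicate block, the deposited table, no minimum fold and leaving out each array. All arrays lay on 1 slide with 1 scan date, all roots in 1 row and all buds in the other, so row and tissue cannot be told apart. The precision is limited by the number of arrays.

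The members and gene lists were chosen with earlier results of these data known. All genes of the fate, bHLH and upstream lists whose symbol the gene table holds are named. Of the effector list, the 5 with the largest difference towards roots and those not called are named. Listed genes whose symbol the gene table does not hold were left out of the counts (4), and 2 effector genes had no matched probe. Of the 4 left out, RSL3 (6.03 ± 0.36) and the effector PRX44 (13.41 ± 0.35) were called higher in roots. Both were at background in flower buds, with bounds, in the same sequence, of at least 39.5-fold and 7768-fold. The upstream regulator DF1 was not called at -0.91 ± 0.12. RSL5 did not pass the filter, with a difference of 5.15 and a bound of at least 15.1-fold towards roots. The effector PRP1 did not pass the filter. Normexp used the median spot signal, as the mean is not a column of the files used here.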

Additional observations from a re-analysis of the deposited data

Results flagged for a closer look

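Each gene's 4 arrays of a tissue were examined for 1 array far from the other 3 (Dixon's ratio above its 95% critical value), which chance gives in about 1 group in 20. Groups with no array well above background were left out, among them the flower bud arrays of RHD6, RSL1, RSL2 and RSL4. Of 109 groups examined, 11 had such an array. None of these was a root group of WER, RHD6, RSL1, RSL2 or RSL4 or the flower bud group of WER. Levels are log2 relative to the 75th percentile. In the fate list, SCM was at 0.017 on root replicate 3, above the others at -0.58 to -0.52, and JKD was at -0.27 on root replicate 4, above -0.87 to -0.78. GL2 was at -0.72 on root replicate 2, above -1.08 to -1.04. MYB23 was at -3.73 on flower bud replicate 1, below -2.17 to -1.89. On root replicate 4, ETC3 was at -5.91, below -2.72 to -2.34, and ZFP5 was at -0.35, below 0.77 to 0.97. LRL1 was at 3.08 on root replicate 4, above 1.56 to 1.80. LRL3 was at -3.55 on flower bud replicate 3, above -9.03 to -8.26. Among effector genes, PRP1 was at -8.05 on root replicate 3, below -5.30 to -4.79, and RHS13 was at 3.85 there, below 4.31 to 4.33. RHS18 was at -7.03 on flower bud replicate 1, above -10.14 to -9.95.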

How the results depend on the processing

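WER, RHD6, RSL2 and RSL4 kept their direction and their call in all 61 combinations of gene and alternative in which they were tested. The adjusted p over these alternatives was at most 1.95e-05 for WER, 8.88e-06 for RHD6, 2.77e-06 for RSL2 and 2.14e-05 for RSL4. Keeping only probes well above background on all 8 arrays left WER alone in the test, so that 1 of the 5 genes was called and 12 effector genes. In that fit 8477 of 18003 genes were called in either direction. With no minimum fold, 8516 genes passed higher in roots in place of 5610, 6 fate genes in place of 3 and 5 upstream regulators in place of 3, and 1 upstream regulator passed higher in flower buds in place of 0. With the minimum fold kept, the count of upstream regulators higher in flower buds ranged from 0 to 1 over the arrays left out. RSL1 was the gene most limited by signal over background. Its difference was 2.04 to 3.22 over the arrays left out, and 1.37 under normexp (limma adjusted p = 5.07e-04 with no filter, an alternative chosen after seeing the data). Normexp moved the differences of 12 of 38 other named genes by over 1.5-fold. Among those 38 genes, 597 alternatives gave 8 lost calls, 13 gained calls and 0 reversed calls, and 8 gave an uncalled difference the opposite sign. Centring on the array median moved the median difference of all genes by 0.13. Replicate numbers did not pair the tissues: the deviations of same-numbered arrays correlated at -0.27, 0.05, -0.01 and 0.10, and 2 of 8 arrays correlated best with their own number. With the replicate number as a block, 12186 genes were called, and the difference of RSL2 was 9.68 with an SE of 0.15. The block changed no call of a named gene.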
